A study of Mus musculus with 18 samples.

Results

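Whole bone marrow taken 6 h after 2 Gy of gamma rays was compared between female C3H mice irradiated at 8 weeks of age and female C3H mice irradiated at 1 week of age. The comparison was made by sample title and holds 6 of the 18 arrays of the series, 3 at 8 weeks and 3 at 1 week. Both groups received the same dose, at 0.6 Gy/min, so each difference given is between ages among irradiated marrows. The other 12 arrays hold unirradiated marrow and marrow taken 24 h after 2 Gy, again with 3 arrays at 8 weeks and 3 at 1 week. The design text gives 3 mice per time point, and the whole marrow was not sorted by cell type as far as the labels say. Cy3-labelled copies of the total RNA were read on 4x44K mouse arrays of Agilent, whose probes cover the transcripts of most protein-coding genes.

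Bone marrow fills the cavities of bones and makes blood cells throughout life. In the newborn mouse haematopoiesis is still moving from liver and spleen into a growing skeleton, and marrow shares its space with active bone formation, whereas young adult marrow holds more mature lymphocytes. Gamma rays break DNA, activate the transcription factor p53, arrest the cell cycle and kill many precursors within hours, and resident macrophages clear the dying cells.

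Levels are given as log2 signal minus the 75th percentile of the same array, so a gene at 0 lies at that percentile and 1 unit is a factor of 2. Differences are 8 weeks minus 1 week in log2, ± the standard error from limma, a linear model fitted over all genes, and p-values are its adjusted p-values over the 11884 genes tested. A gene was called at an adjusted p under 0.05. Nothing in the labels says that each array is 1 animal, so p-values measure the spread between these samples. Levels are compared within a gene, since probes differ in brightness. Folds written as at least, for genes dim in a group, are bounds on this scale only.

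On the 6 arrays 51.5 to 62.1% of probes were well above background, with 1-week replicate 2 the highest and 55.7% the next. Replicates correlated at r = 0.992 to 0.995 in both groups. Slide 1 of the 5 slides held 1 array of each age, and across genes its age difference correlated at r = 0.890 with that of the arrays on the other slides. Genes of marrow blood cells were bright at both ages, which does not show whether other tissue was present. The granulocyte gene Mpo lay at 8.54, 8.36 and 8.55 in 8-week marrow and 7.64, 7.69 and 7.81 in 1-week marrow, and the haem synthesis gene Alas2, chosen after its values were seen, at 8.29, 8.36 and 8.197 in 8-week marrow and 8.53, 8.42 and 8.37 in 1-week marrow.

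The ages differed widely 6 h after irradiation. Of 11884 genes, 3316 (27.9%) were higher and 4317 (36.3%) lower in 8-week marrow, 7633 in all (64.2%), and 4251 were not called. The 3 and 3 arrays did not overlap in 7802 genes (65.7%). At least 2-fold differences numbered 1510 (12.7%), 650 of them higher (5.47%) and 860 lower (7.24%). The median difference over all tested genes was -0.08. Such a background means that a count in a gene list says little unless it stands far from 27.9% higher and 36.3% lower.

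Most of the age difference at 6 h was also present without irradiation. Unirradiated marrow gave 3264 genes higher (27.5%) and 4423 lower (37.2%) at 8 weeks, 64.7% in all, and 5817 genes were called with the same sign in both comparisons, 76.2% of the calls at 6 h and 75.7% of those in unirradiated marrow. Another 141 were called with opposite signs. The comparisons share no array, and their differences correlated over genes at r = 0.821, a description across genes that are not independent. At 24 h the ages gave 3957 genes higher (33.3%) and 3304 lower (27.8%), 61.1% in all, and 5465 genes were called with the same sign at both times.

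Some differences were of another size at 6 h than in unirradiated marrow. The interaction, which is the age difference at 6 h minus that in unirradiated marrow, was positive and called in 1182 genes (9.95%) and negative and called in 966 (8.13%), together 18.1%. Of the 7633 genes called at 6 h, 1608 were also called in this interaction. The gap between ages was wider at 6 h, or of opposite sign, in 1184 of these and narrower in 424. Against 24 h the interaction was positive in 558 genes (4.7%) and negative in 1792 (15.1%), together 19.8%. With slide as a term in the fit these interactions were called in 1282 and 1490 genes, against 2148 and 2350 without it. Of the calls against 24 h 23.7% were positive, and 36.5% with quantile normalization, and their number was 1475 without 8-week 6 h replicate 2.

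**Figure D1:**
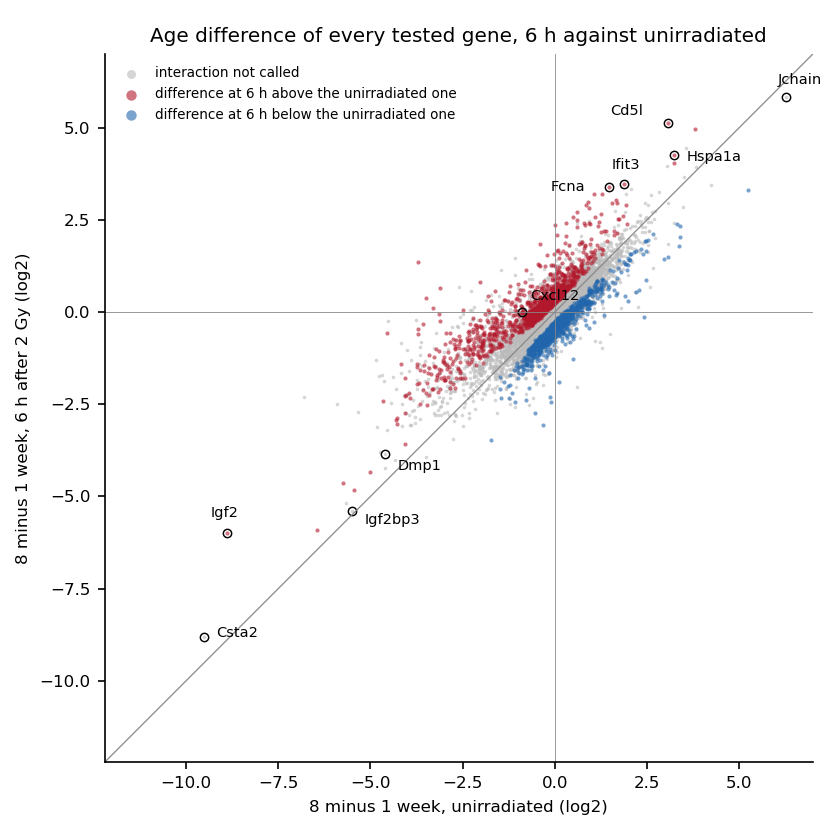
Age difference of each of 11884 genes 6 h after 2 Gy (vertical axis, 8 weeks minus 1 week, log2) against the same difference in unirradiated marrow (horizontal axis, log2), with the line of equal differences. Red points (1182 genes) lie above the line and blue points (966) below it by the limma interaction at an adjusted p under 0.05, and Fcna, Cd5l and Ifit3 stand above the line while Jchain and Igf2bp3 lie near it.

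Gene lists for marrow cell types and pathways were described by the number of members called and by their median. Lists highest at 8 weeks were those of natural killer cells (median 2.09) and resident macrophages (1.54), and the lowest were collagens (-1.54) and bone matrix (-1.46). With another background correction these medians shrank to 1.17, 1.03, -1.11 and -0.84. MHC class II genes (1.07) then stood above resident macrophages, and megakaryocyte (-1.03) and endothelial genes (-0.93) below bone matrix. In whole marrow, fewer cells of a type and less RNA per cell cannot be told apart.

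**Figure D2:**
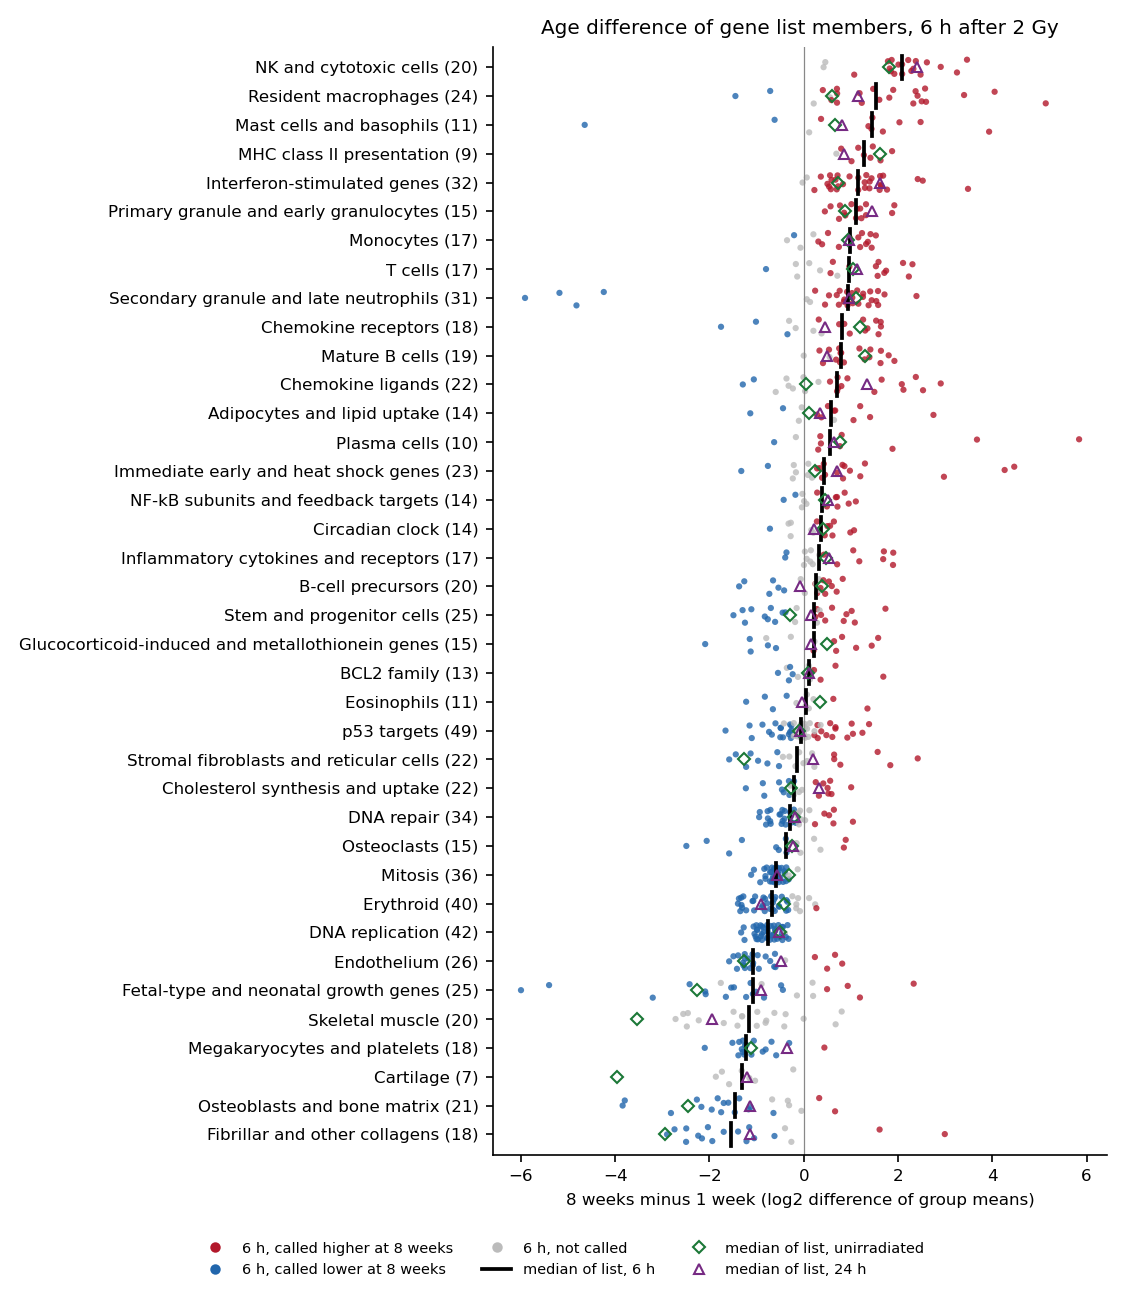
Age difference 6 h after 2 Gy (8 weeks minus 1 week, log2) of every tested member of 38 gene lists, 1 point per gene, with the number tested in brackets. Red and blue points are genes called higher and lower at 8 weeks, grey points were not called, black bars are list medians at 6 h, green diamonds medians in unirradiated marrow and purple triangles medians at 24 h. Natural killer cells lie at the top with a median of 2.09 and collagens at the bottom with -1.54.

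Of 10 plasma cell genes 8 were higher and 1 lower, with a median of 0.57. Jchain, the joining chain of polymeric antibodies, lay at 4.36, 4.82 and 4.99 in 8-week marrow and -1.16, -1.03 and -1.16 in 1-week marrow, 5.84 ± 0.11 (adjusted p = 1.83e-15). No array of either age came near the other age. Its difference was 6.28 ± 0.11 in unirradiated marrow and 5.69 ± 0.11 at 24 h, and neither interaction was called (adjusted p = 0.0697 and 0.54). Tnfrsf17, the survival receptor of plasma cells, was well above background on all 8-week arrays and on none at 1 week, which makes it at least 4.65-fold higher (adjusted p = 2.52e-09). Smaller differences were those of Xbp1, a regulator of the secretory apparatus (0.77 ± 0.06), and of the surface proteoglycan Sdc1 (0.81 ± 0.09). The lower member was the folding helper Fkbp11 (-0.63 ± 0.10), chosen after its value was seen.

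Mature B-cell genes were higher in 17 of 19 members and lower in 0, with a median of 0.80 against 1.30 in unirradiated marrow. Ms4a1, the B-cell surface protein CD20, lay at 4.29, 4.37 and 4.04 in 8-week marrow and 2.79, 3.08 and 2.96 in 1-week marrow, 1.29 ± 0.10 (adjusted p = 2.22e-08). The ages did not overlap. Its gap was 1.98 ± 0.10 in unirradiated marrow and 0.33 ± 0.10 at 24 h, so it was narrower at 6 h than without irradiation (-0.69 ± 0.15, adjusted p = 0.00536, and adjusted p = 0.0612 with slide in the fit) and wider at 6 h than at 24 h (0.96 ± 0.15, adjusted p = 0.000733). Fcmr, the receptor for IgM, was higher by 1.92 ± 0.11 and Bank1, a B-cell scaffold protein, by 1.39 ± 0.12. The MHC class II genes, which B cells and other antigen-presenting cells express, were higher in 8 of 9 members (median 1.28), led by the invariant chain Cd74 at 1.87 ± 0.09.

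B-cell precursor genes did not go one way. Of 20 members 9 were higher and 6 lower at 8 weeks, with a median of 0.27. The surrogate light chain gene Vpreb1 lay at 4.48, 4.34 and 3.82 in 8-week marrow and 5.56, 5.47 and 5.37 in 1-week marrow, -1.26 ± 0.13 (adjusted p = 2.74e-07), and its paralogue Vpreb2 was lower too (-1.37 ± 0.13), although probes of the pair may cross-hybridise. Rag1, which cuts antigen receptor genes for rearrangement, lay at -0.18, -0.32 and -0.60 in 8-week marrow and 0.24, 0.43 and 0.18 in 1-week marrow. All 3 of its 8-week arrays were below all 3 at 1 week (-0.65 ± 0.10, adjusted p = 3.66e-05). In unirradiated marrow Rag1 was higher at 8 weeks by 0.51 ± 0.10, at 2.70, 2.60 and 2.62 against 2.16, 1.91 and 2.30, and the interaction was -1.16 ± 0.15 (adjusted p = 9.13e-05). At 24 h the difference was again negative, -0.80 ± 0.10. The interleukin 7 receptor Il7r (0.83 ± 0.10) and the B-cell receptor subunit Cd79b (0.70 ± 0.10) were higher at 8 weeks, while the partner subunit Cd79a overlapped between ages (-0.06 ± 0.29, 95% interval -0.68 to 0.56).

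Natural killer and cytotoxic genes were higher at 8 weeks in 18 of 20 members, each by at least 2-fold, and lower in 0. Of the 20, 11 were well above background on all 6 h arrays, and 10 of these were higher. With another background correction 18 were still higher, with a median of 1.17 in place of 2.09. Over the alternatives the smallest difference was 0.98 for Klra3 and 0.93 for Xcl1, under 2-fold. Klrd1, the CD94 receptor subunit, lay at 1.802, 1.77 and 1.60 in 8-week marrow and -0.60, -0.39 and -0.68 in 1-week marrow, 2.28 ± 0.10 (adjusted p = 3.16e-11). The groups were far apart, and the difference was 2.04 ± 0.10 in unirradiated marrow. Klra7, an inhibitory receptor of the Ly49 family, was higher by 3.46 ± 0.21 and Klra3 at least 2.79-fold, with the reservation that Ly49 probes may read more than 1 family member. The interleukin 2 receptor chain Il2rb (2.01 ± 0.10) and the transcription factor Tbx21 (2.22 ± 0.12) were higher too. Of 17 T-cell genes 11 were higher and 1 lower (median 0.97), among them the kinases Txk (2.11 ± 0.11) and Zap70 (1.59 ± 0.13), which natural killer cells also express. The T-cell receptor subunit Cd3e was not called, at -3.17, -3.59 and -3.14 in 8-week marrow and -4.42, -3.42 and -4.20 in 1-week marrow (0.71 ± 0.36, adjusted p = 0.0924).

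Resident macrophage genes were higher at 8 weeks, and in most of them the gap at 6 h was wider than in unirradiated marrow. At 6 h 20 of 24 were higher and 2 lower at 8 weeks (median 1.54), against 19 higher, 3 lower and a median of 0.60 without irradiation. The lower members were Stab1 (-1.45 ± 0.14) and Stab2 (-0.71 ± 0.13), scavenger receptors that sinusoidal endothelium also carries, named after their values were seen. The interaction was positive and called in 16 of 24 and negative in 1. Without 1-week replicate 2 at 6 h and 1-week control replicate 2, which stand apart from their groups in probes above background and in muscle genes, 21 were higher at 6 h and the interaction was positive in 17.

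Cd5l, a secreted protein of tissue macrophages, lay at 3.61, 3.78 and 3.86 in 8-week marrow and -1.85, -1.07 and -1.23 in 1-week marrow, 5.13 ± 0.16 (adjusted p = 4.08e-13). Without irradiation it was at 2.98, 2.76 and 2.69 in 8-week marrow and -0.43, -0.20 and -0.21 in 1-week marrow. The gap was 2.04 ± 0.23 wider at 6 h (adjusted p = 4.19e-05). Fcna, a ficolin lectin of innate immunity, lay at 3.09, 3.03 and 3.03 in 8-week marrow and -0.66, -0.18 and -0.21 in 1-week marrow (3.40 ± 0.11, adjusted p = 3.98e-13). Its gap exceeded the unirradiated one by 1.94 ± 0.15 (adjusted p = 1.48e-06) and the one at 24 h by 1.41 ± 0.15 (adjusted p = 0.00012).

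Hmox1, the haem oxygenase of macrophages that digest red cells, lay at 5.52, 5.51 and 5.38 in 8-week marrow and 2.81, 2.94 and 2.94 in 1-week marrow, 2.57 ± 0.09 (adjusted p = 7.69e-13). Here too the gap was wider at 6 h than in unirradiated marrow (1.47 ± 0.12, adjusted p = 1.86e-06) and than at 24 h (1.11 ± 0.12, adjusted p = 0.000126). Timd4, a receptor for phosphatidylserine on dying cells, was higher by 2.41 ± 0.11, with interactions of 1.62 ± 0.15 against unirradiated marrow (adjusted p = 5.57e-06) and 1.34 ± 0.15 against 24 h (adjusted p = 0.00013). The haemoglobin scavenger receptor Cd163 was higher by 4.05 ± 0.16 (adjusted p = 4.41e-12), with 3.25 ± 0.16 in unirradiated marrow.

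The following 4 members were chosen after their values were seen. The complement gene C1qa lay at 1.82, 1.75 and 1.79 in 8-week marrow and -1.14, -0.43 and -0.58 in 1-week marrow (2.503 ± 0.14, interaction 1.89 ± 0.19, adjusted p = 1.65e-05), and C1qc at 3.46, 3.44 and 3.61 in 8-week marrow and 0.54, 1.17 and 1.02 in 1-week marrow (2.59 ± 0.13, interaction 2.09 ± 0.18, adjusted p = 3.42e-06). C1q binds to dying cells and starts the complement cascade. Spic, a transcription factor of red pulp macrophages, was higher by 1.47 ± 0.08, with 0.10 ± 0.08 in unirradiated marrow (interaction 1.37 ± 0.11, adjusted p = 1.72e-06). The scavenger receptor Marco was higher at 8 weeks at 6 h (0.71 ± 0.14) and lower at 8 weeks in unirradiated marrow (-1.21 ± 0.14), with an interaction of 1.91 ± 0.20 (adjusted p = 2.05e-05). Il18, an inflammatory cytokine that macrophages make, lay at 0.82, 0.87 and 0.69 in 8-week marrow and -0.97, -0.82 and -0.88 in 1-week marrow. Its difference was 1.69 ± 0.08 at 6 h, 0.10 ± 0.08 without irradiation and 0.80 ± 0.08 at 24 h, with interactions of 1.59 ± 0.11 (adjusted p = 6.87e-07) and 0.89 ± 0.11 (adjusted p = 0.0002).

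**Figure D3:**
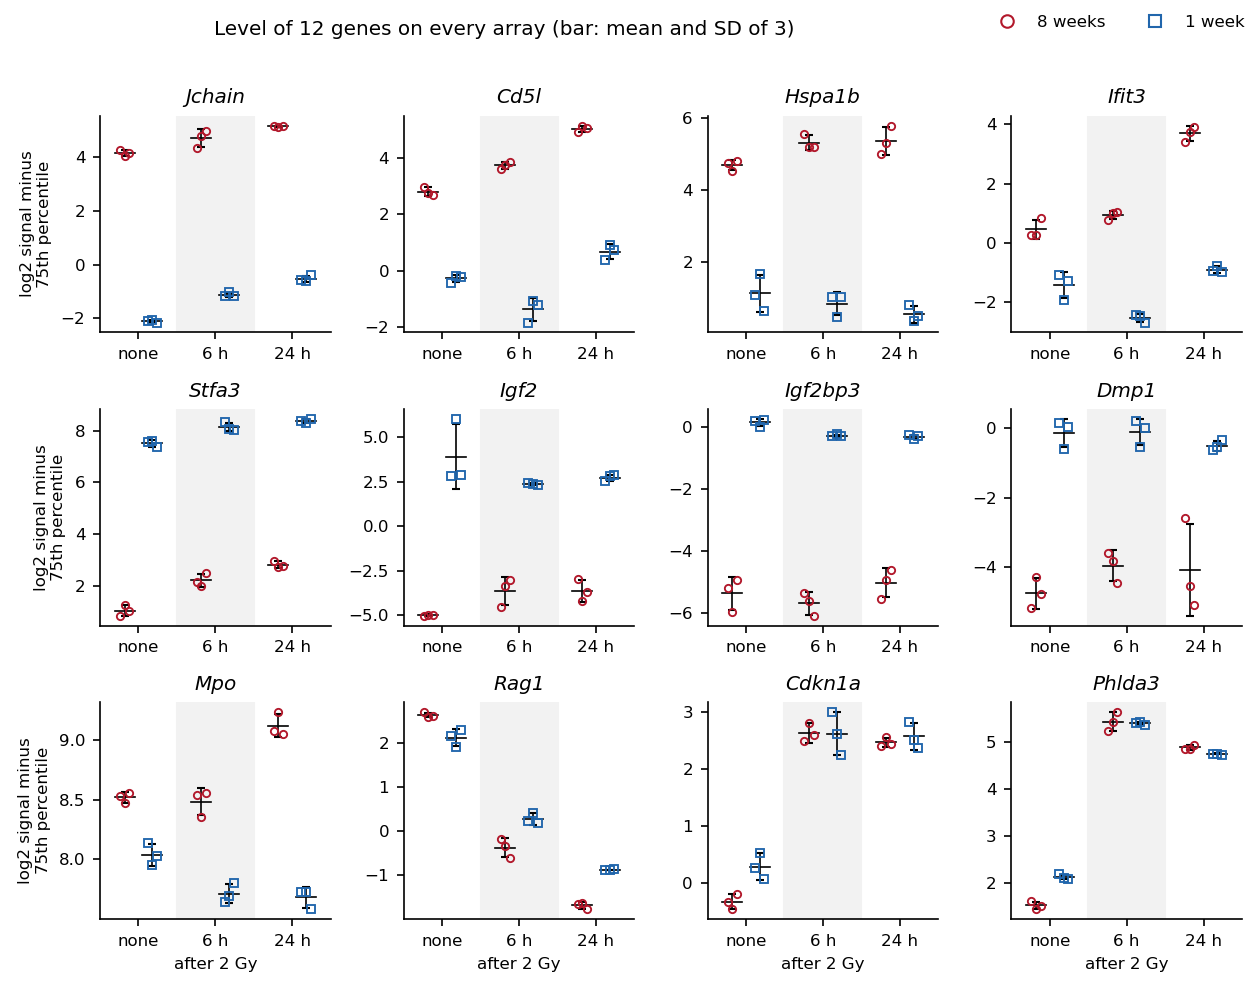
Level of 12 genes on all 18 arrays (log2 signal minus the 75th percentile of the array), unirradiated, 6 h and 24 h after 2 Gy, with 8 weeks (red circles) left of 1 week (blue squares). Points are arrays and black bars give mean and SD of 3, and the shaded column holds the 6 h arrays, where Cd5l shows its widest gap (5.13 ± 0.16) and Cdkn1a and Phlda3 overlap between ages.

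Granulocyte genes split between the common granule proteins and the stefins. All 15 tested genes of primary granules and early granulocytes were higher at 8 weeks (median 1.11, against 0.87 in unirradiated marrow). Mpo, the peroxidase of primary granules, was higher by 0.77 ± 0.07 (adjusted p = 9.4e-08) with levels given above, the elastase gene Elane by 1.88 ± 0.13 and the cathepsin gene Ctsg by 1.32 ± 0.09. The gap in Mpo was smaller at 6 h than at 24 h (-0.67 ± 0.10, adjusted p = 0.000607), and so was that in Ctsg (-0.59 ± 0.12, adjusted p = 0.00468). Ctsg was also called against unirradiated marrow (0.60 ± 0.12, adjusted p = 0.00422, and 0.0567 with slide in the fit).

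Late neutrophil genes were higher in 25 of 31 members, with a median of 0.93. Clec4e, a lectin receptor for damaged cells, lay at 2.57, 2.59 and 2.53 in 8-week marrow and 0.26, -0.00054 and 0.26 in 1-week marrow (2.39 ± 0.08, adjusted p = 3.98e-13). The ages were well apart. S100a9, a calcium-binding protein abundant in neutrophils, lay at 9.48, 9.66 and 9.61 in 8-week marrow and 9.65, 9.53 and 9.37 in 1-week marrow and overlapped. Its difference of 0.07 ± 0.08 had a 95% interval of -0.10 to 0.23, inside -0.5 to 0.5, as was that of Trem1, an activating receptor (0.13 ± 0.12, -0.11 to 0.38).

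The 4 late neutrophil genes that were lower at 8 weeks were Stfa1, Stfa2, Stfa3 and Stfa2l1, stefins, which inhibit cysteine proteases inside cells. Stfa3 lay at 2.16, 2.02 and 2.52 in 8-week marrow and 8.33, 8.08 and 8.02 in 1-week marrow, -5.91 ± 0.12 (adjusted p = 2.77e-15). Outside that list Csta2, from the same gene family, had the lowest difference of any gene tested, at -1.21, -1.07 and 0.15 in 8-week marrow and 8.29, 8.11 and 7.87 in 1-week marrow, -8.80 ± 0.24 (adjusted p = 4.74e-14). Every 1-week array was bright and every 8-week array was near or below the 75th percentile. Csta1 (-3.56 ± 0.09), Cstdc4 (-4.01 ± 0.11) and Cstdc5 (-4.35 ± 0.13) were lower as well. These genes all lie on chromosome 16 and are near-identical in part, so their probes may read each other's transcripts and are not independent measurements. In unirradiated marrow the same gap was -6.44 ± 0.12 for Stfa3 and -9.52 ± 0.24 for Csta2.

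Monocyte genes were higher in 13 of 17 members and lower in 1 (median 0.98). Ly6c2, the surface protein of classical monocytes, lay at 7.84, 7.84 and 7.56 in 8-week marrow and 6.54, 6.29 and 6.33 in 1-week marrow (1.36 ± 0.09), and the transcription factor Irf8 was higher by 1.24 ± 0.08. Of 11 mast cell and basophil genes 8 were higher and 2 lower (median 1.44). The IgE receptor chain Fcer1a lay at 0.18, 0.10 and -0.19 in 8-week marrow and -3.84, -3.80 and -4.06 in 1-week marrow, 3.93 ± 0.13 (adjusted p = 5.91e-13), and the basophil protease Prss34 was higher by 2.48 ± 0.12. In the other direction the connective tissue mast cell protease Mcpt4 was well above background on no 8-week array and at least 6.08-fold lower (adjusted p = 1.37e-10). The eosinophil list gave 2 higher and 4 lower of 11 (median 0.04), against 27.9% higher and 36.3% lower over all genes. Its eosinophil peroxidase Epx was lower (-0.82 ± 0.11), and its chemokine receptor Ccr3 was higher, by 1.12 to 1.47 over the alternatives.

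Interferon-stimulated genes were higher in 30 of 32 members and lower in 0, with a median of 1.16 at 6 h, 0.74 in unirradiated marrow and 1.63 at 24 h. Ifit3, of a family of antiviral RNA-binding proteins, lay at 0.78, 1.02 and 1.02 in 8-week marrow and -2.44, -2.49 and -2.70 in 1-week marrow, 3.48 ± 0.19 (adjusted p = 2.39e-10). In unirradiated marrow it was at 0.28, 0.27 and 0.83 at 8 weeks and -1.09, -1.92 and -1.28 at 1 week, a gap of 1.89 ± 0.19. The gap at 6 h was wider than that (1.60 ± 0.27, adjusted p = 0.000927) and narrower than the 4.61 ± 0.19 at 24 h (-1.13 ± 0.27, adjusted p = 0.0091, and 0.0639 with slide in the fit). Oasl2, of the 2-5A synthetase family, was higher by 2.52 ± 0.13, with interactions of 0.80 ± 0.18 against unirradiated marrow (adjusted p = 0.00701) and -0.89 ± 0.18 against 24 h (adjusted p = 0.0041). The receptor transporter Rtp4 was higher by 2.42 ± 0.18 (interaction with unirradiated marrow 1.498 ± 0.26, adjusted p = 0.00128). Over the list the interaction with unirradiated marrow was positive in 9 and that with 24 h negative in 19 of 32, and in 5 and 14 with slide in the fit.

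Promoters of Ifit3 and its neighbour Ifit3b are shown because their transcripts had unlike gaps at 6 h and 24 h. Ifit3b lay at -2.83, -2.84 and -2.72 in 8-week marrow and -4.07, -3.62 and -4.56 in 1-week marrow (1.28 ± 0.22), was well above background on 1 of the 1-week arrays, and had a gap of 4.002 ± 0.22 at 24 h (interaction -2.72 ± 0.32, adjusted p = 0.000164). The lowest well-above-background signals of these 1-week arrays were -4.06, -4.37 and -4.43, so the gap of Ifit3b at 6 h is limited by dimness. Over the alternatives it was 0.45 at its smallest. Whether probes of the pair read each other's transcripts was not tested. The sequences are the 250 bases before each start, from RefSeq on GRCm38.p6, plus strand, at chr19:34583279-34583528 for Ifit3 and chr19:34607707-34607956 for Ifit3b. Capitals mark matches to the core of the interferon response element, a pair of GAAA with any 2 bases between them, on either strand, which reads as a pair of TTTC where it lies on the other strand.
Ifit3: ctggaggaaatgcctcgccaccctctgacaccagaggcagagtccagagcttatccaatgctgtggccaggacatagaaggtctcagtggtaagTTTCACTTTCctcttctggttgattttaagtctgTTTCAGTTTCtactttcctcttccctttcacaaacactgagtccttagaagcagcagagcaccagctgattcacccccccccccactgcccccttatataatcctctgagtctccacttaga
Ifit3b: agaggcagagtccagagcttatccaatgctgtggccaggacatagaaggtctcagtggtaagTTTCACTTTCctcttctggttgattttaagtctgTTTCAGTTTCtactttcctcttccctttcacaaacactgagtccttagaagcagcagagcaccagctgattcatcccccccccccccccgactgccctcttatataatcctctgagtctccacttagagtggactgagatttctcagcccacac
Both windows hold 2 matches, which begin 156 and 122 bases before the start of Ifit3 and 188 and 154 bases before that of Ifit3b. Of 32851 promoter windows of that length 2.98% hold the motif. By gene the motif is in 3.46% of all and in 9 of the 23 interferon-stimulated genes with a window (39.1%). A match is a description of the letters and shows no binding.

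Chemokines, which guide leucocytes, were higher at 8 weeks in 13 of 22 ligands and lower in 2, with a median of 0.71 against 0.04 in unirradiated marrow and 1.34 at 24 h. Ccl5, a product of cytotoxic lymphocytes, lay at 4.06, 4.16 and 3.93 in 8-week marrow and 1.16, 1.18 and 1.09 in 1-week marrow, 2.91 ± 0.09 (adjusted p = 4.08e-13). Its gap at 6 h exceeded that at 24 h by 0.55 ± 0.13 (adjusted p = 0.00951). Xcl1 (2.38 ± 0.27), also from cytotoxic cells, and the macrophage chemokine Ccl9 (1.499 ± 0.08) were higher too. The interferon-induced Cxcl9 was well above background on no 1-week array and at least 3.71-fold higher at 8 weeks (adjusted p = 1.09e-05).

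Ccl2, which draws monocytes through the receptor Ccr2, lay at -1.14, -0.81 and -0.83 in 8-week marrow and -1.63, -1.74 and -1.60 in 1-week marrow, 0.73 ± 0.11 (adjusted p = 1.54e-05). The ages did not overlap. In unirradiated marrow the difference did not pass (-0.20 ± 0.11, adjusted p = 0.117), and the interaction was 0.92 ± 0.15 (adjusted p = 0.000799). At 24 h the gap was 1.55 ± 0.11, wider than at 6 h (interaction -0.82 ± 0.15, adjusted p = 0.00209). Ccl4 (1.65 ± 0.18) and the interferon-induced Cxcl10 (0.72 ± 0.18) also had narrower gaps at 6 h than at 24 h, with interactions of -1.46 ± 0.25 (adjusted p = 0.00145) and -1.61 ± 0.26 (adjusted p = 0.00102). Ccl7 was well above background on 1 array of each age at 6 h and not called (-0.32 ± 0.26, adjusted p = 0.3).

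Cxcl12, the stromal chemokine that holds stem cells in marrow, lay at 4.49, 4.15 and 4.68 in 8-week marrow and 4.29, 4.34 and 4.70 in 1-week marrow. The arrays overlapped, and the difference of -0.01 ± 0.16 had a 95% interval of -0.34 to 0.33. In unirradiated marrow Cxcl12 was lower at 8 weeks (-0.88 ± 0.16), and the interaction was 0.88 ± 0.22 (adjusted p = 0.0136, and 0.0869 with slide in the fit). Cxcl14 was higher at 6 h (0.56 ± 0.16) and lower without irradiation (-0.52 ± 0.16), with an interaction of 1.08 ± 0.23 (adjusted p = 0.0048, and 0.0508 with slide in the fit). The 2 lower ligands were the platelet chemokines Pf4 (-1.29 ± 0.26) and Ppbp (-1.06 ± 0.32), and the call of Ppbp was lost without 8-week replicate 1. The other ligands that did not pass were Ccl12 (0.31 ± 0.35), Ccl24 (-0.59 ± 0.35), Ccl25 (0.03 ± 0.09), Cx3cl1 (-0.37 ± 0.16) and Cxcl16 (-0.23 ± 0.15). The higher ligands not yet given were Ccl3 (0.93 ± 0.14), Ccl6 (0.80 ± 0.09), Ccl19 (0.71 ± 0.20), Ccl8 (at least 1.74-fold) and Ccl27a (at least 1.57-fold). Ccl8 and Ccl27a were well above background on no 1-week array. Ccl19 and Ccl27a were not called under some settings.

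Chemokine receptors were higher in 11 of 18 members and lower in 3 (median 0.81, against 1.19 in unirradiated marrow). Cxcr3, the receptor of Cxcl9 and Cxcl10 on T and natural killer cells, lay at 1.02, 1.01 and 0.85 in 8-week marrow and -0.59, -0.44 and -0.70 in 1-week marrow (1.54 ± 0.09, adjusted p = 4e-10). Cxcr5, a B-cell homing receptor (1.64 ± 0.12), and the neutrophil receptor Cxcr2 (1.26 ± 0.13) were higher too. Cxcr4, the receptor of Cxcl12, differed by 0.32 ± 0.09 (adjusted p = 0.00485). Ccr6, found on B cells, was higher by 1.30 ± 0.15 and its gap exceeded that at 24 h by 1.00 ± 0.22 (adjusted p = 0.00553). The lower members were the decoy receptors Ackr1 (-0.34 ± 0.10), Ackr2 (-1.75 ± 0.32) and Ackr3 (-1.01 ± 0.24), and Ackr1 was not called with another background correction.

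**Figure D4:**
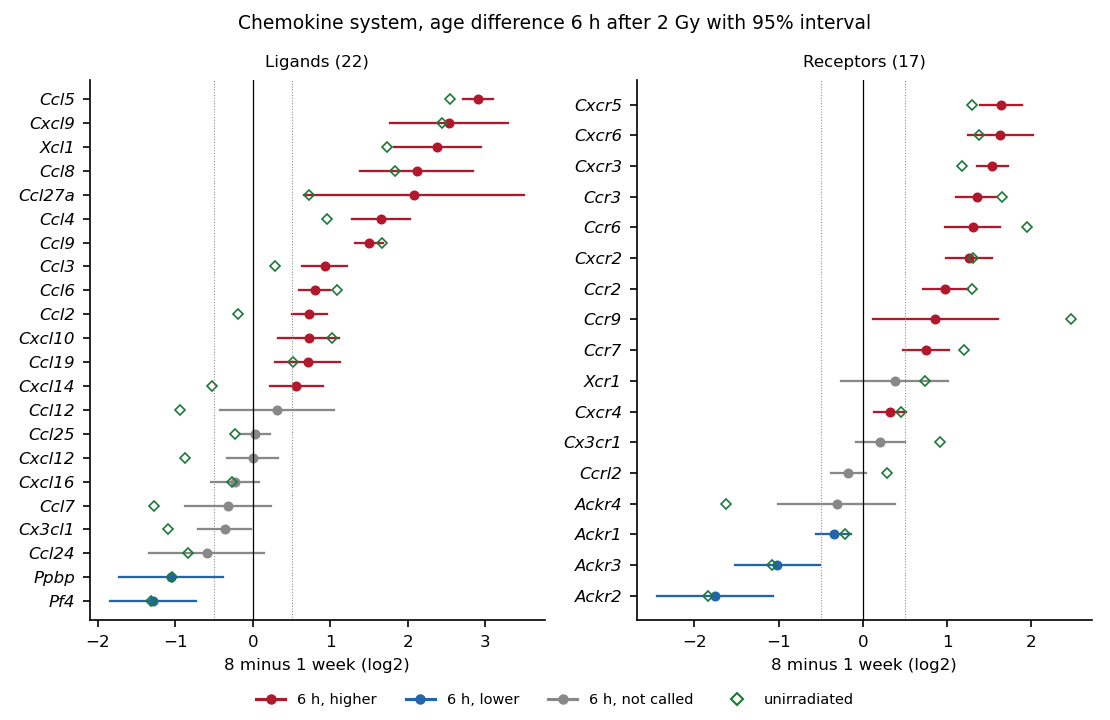
Age difference 6 h after 2 Gy (8 weeks minus 1 week, log2) of 22 chemokine ligands and 17 of the 18 receptors tested, as points with 95% intervals from the limma fit, coloured by call, with the difference in unirradiated marrow as open diamonds and dotted lines at -0.5 and 0.5. Ccl5 leads the ligands at 2.91, while Cxcl12 sits at -0.01 with its unirradiated diamond at -0.88.

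Inflammatory cytokine genes were higher in 8 of 17 members and lower in 2 (median 0.33). Il1b, a fever-inducing cytokine, lay at 2.54, 2.98 and 3.15 in 8-week marrow and 1.35, 1.36 and 0.85 in 1-week marrow (1.70 ± 0.15, adjusted p = 6.05e-08), with 1.72 ± 0.15 in unirradiated marrow. Tnfsf13b, the B-cell survival factor BAFF, was higher by 1.89 ± 0.09. Among 14 NF-kB subunits and feedback targets 8 were higher and 2 lower, including the adaptor Traf1 (1.11 ± 0.11) and the inhibitor Tnfaip3 (0.71 ± 0.07).

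Of the 23 immediate early and heat shock genes tested 15 were higher and 2 lower (median 0.43). Hspa1b, an inducible HSP70 gene, lay at 5.54, 5.19 and 5.17 in 8-week marrow and 1.03, 0.47 and 1.01 in 1-week marrow, 4.47 ± 0.23 (adjusted p = 1.43e-10), and its copy Hspa1a at 8.06, 7.97 and 7.83 in 8-week marrow and 3.87, 3.52 and 3.69 in 1-week marrow, 4.26 ± 0.18 (adjusted p = 1.3e-11). No array overlapped. Both were also far apart in unirradiated marrow, by 3.56 ± 0.23 and 3.24 ± 0.18, and the interaction was called for Hspa1a (1.02 ± 0.25, adjusted p = 0.0115) and not for Hspa1b (0.90 ± 0.33, adjusted p = 0.0668). The HSP110 gene Hsph1 lay at 5.38, 5.52 and 5.55 in 8-week marrow and 2.37, 2.61 and 2.55 in 1-week marrow (2.97 ± 0.13). Its gap was wider at 6 h than without irradiation (1.28 ± 0.18, adjusted p = 0.000248) and than at 24 h (0.84 ± 0.18, adjusted p = 0.00532). The HSP90 gene Hsp90aa1 was higher by 1.30 ± 0.08, again with both interactions positive, 0.87 ± 0.11 (adjusted p = 0.000133) and 0.51 ± 0.11 (adjusted p = 0.00622).

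The HSP70 promoters are shown because the pair of genes had the largest chaperone differences and are near copies. The sequences are the 250 bases before each start, from RefSeq on GRCm38.p6, minus strand, at chr17:34972157-34972406 for Hspa1a and chr17:34959239-34959488 for Hspa1b. Capitals mark the heat shock element pair GAANNTTC, which reads the same on both strands.
Hspa1a: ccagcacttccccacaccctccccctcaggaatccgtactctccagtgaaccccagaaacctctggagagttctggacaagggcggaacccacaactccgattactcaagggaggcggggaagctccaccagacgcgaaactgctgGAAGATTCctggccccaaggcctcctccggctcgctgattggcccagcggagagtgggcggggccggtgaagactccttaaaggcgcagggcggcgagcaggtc
Hspa1b: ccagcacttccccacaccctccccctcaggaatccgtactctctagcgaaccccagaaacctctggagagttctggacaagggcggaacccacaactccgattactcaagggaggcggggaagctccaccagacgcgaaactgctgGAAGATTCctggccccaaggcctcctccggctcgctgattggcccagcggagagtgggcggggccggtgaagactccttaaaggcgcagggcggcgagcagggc
Each holds 1 match, which begins 104 bases before the start. The windows are the same at 247 of 250 bases (98.8%), and the transcripts are alike as well, so the probes may read both genes. The motif is in 6.69% of all windows, in 7.73% of genes, and in 6 of the 18 immediate early and heat shock genes with a window (33.3%).

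Erythroid genes were lower at 8 weeks in 32 of 40 members and higher in 1, with a median of -0.67 against -0.42 in unirradiated marrow. Alad, an enzyme of haem synthesis, lay at 6.67, 6.92 and 7.16 in 8-week marrow and 8.35, 8.27 and 8.24 in 1-week marrow (-1.37 ± 0.08, adjusted p = 9e-10). The master regulator Gata1 (-1.22 ± 0.08) and the membrane skeleton gene Sptb (-1.33 ± 0.09) were lower too. Alas2, the first enzyme of haem synthesis in red cells, did not pass (-0.16 ± 0.08, adjusted p = 0.103).

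Megakaryocyte and platelet genes were lower in 17 of 18 members (median -1.23), against a median of -0.35 and 5 lower at 24 h. Itga2b, the platelet integrin CD41, lay at -0.20, -0.03 and 0.50 in 8-week marrow and 1.33, 1.22 and 1.82 in 1-week marrow, -1.37 ± 0.20 (adjusted p = 1.24e-05). Its gap differed from that at 24 h by -1.18 ± 0.28 (adjusted p = 0.00857), as did that of the platelet receptor Gp5 (-1.51 ± 0.22 at 6 h, interaction -1.16 ± 0.31, adjusted p = 0.0171). The ages did not overlap, and replicate 3 was the highest at both ages for both genes. The adhesion protein Thbs1 was lower as well (-2.10 ± 0.17).

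Stem and progenitor genes were evenly divided, 10 higher and 10 lower of 25 (median 0.23), against 27.9% higher and 36.3% lower over all genes. Cd34, a progenitor surface protein, lay at 3.39, 3.35 and 3.44 in 8-week marrow and 2.34, 2.60 and 2.53 in 1-week marrow, 0.91 ± 0.08 (adjusted p = 6.13e-08). In unirradiated marrow the difference was 0.01 ± 0.08, and the interaction was 0.90 ± 0.11 (adjusted p = 9.75e-05). Ly6a, the stem cell antigen Sca-1, which interferon also induces, was higher by 1.73 ± 0.14. Hoxa9, a homeobox regulator of self-renewal, was lower (-1.11 ± 0.14).

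Cell division genes were lower at 8 weeks almost throughout. DNA replication genes were lower in 41 of 42 members and higher in 0, with a median of -0.76 against -0.51 in unirradiated marrow, where 39 were lower. E2f1, the transcription factor that opens S phase, lay at 0.48, 0.36 and 0.56 in 8-week marrow and 1.72, 1.70 and 1.74 in 1-week marrow, -1.26 ± 0.06 (adjusted p = 6.3e-11). The ages were well apart. The interaction was -0.66 ± 0.09 against unirradiated marrow (adjusted p = 0.000124) and -0.70 ± 0.09 against 24 h (adjusted p = 0.0002), a wider gap at 6 h in both. Tk1, the thymidine kinase of S phase, lay at 3.44, 3.47 and 3.65 in 8-week marrow and 4.90, 4.66 and 4.82 in 1-week marrow (-1.27 ± 0.07), with interactions of -0.58 ± 0.10 (adjusted p = 0.00155) and -0.50 ± 0.10 (adjusted p = 0.00414). The origin licensing factor Cdt1 was at -0.97 ± 0.09 and the ligase Lig1 at -0.98 ± 0.06. The cyclin gene Ccne2, chosen after its value was seen, was the member that did not pass (-0.40 ± 0.17, adjusted p = 0.0524).

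Mitosis genes were lower in 34 of 36 members (median -0.59), against 22 lower and a median of -0.32 in unirradiated marrow. The phosphatase Cdc25c, which starts mitosis, was at -1.11 ± 0.09 and the kinase Plk1 at -0.69 ± 0.06. DNA repair genes were lower in 21 of 34 members and higher in 6 (median -0.28). The damage histone gene H2ax was lower (-0.71 ± 0.07). Xpc, which finds bulky lesions for nucleotide excision repair and is also a p53 target, went the other way, at 3.77, 3.602 and 3.57 in 8-week marrow and 2.71, 2.53 and 2.58 in 1-week marrow (1.04 ± 0.06, adjusted p = 1.07e-09).

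The p53 targets as a list did not stand apart from all tested genes at 6 h. Of 49 members 14 were higher, 17 lower and 18 not called, near the 27.9% higher and 36.3% lower over all genes. Their median was -0.06, against -0.08 over all genes, and it was -0.10 in unirradiated marrow and -0.08 at 24 h. A 95% interval inside -0.5 to 0.5 was found for 22 members, a condition that 39% of all genes met. Cdkn1a, the p21 cell cycle inhibitor, lay at 2.49, 2.82 and 2.60 in 8-week marrow and 2.998, 2.62 and 2.24 in 1-week marrow. The arrays overlapped, with a difference of 0.01 ± 0.16 (95% interval -0.33 to 0.36). In unirradiated marrow Cdkn1a was lower at 8 weeks, at -0.33, -0.46 and -0.19 against 0.26, 0.53 and 0.07 (-0.61 ± 0.16), and its interaction did not pass (0.63 ± 0.23, adjusted p = 0.0682).

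Phlda3, an inhibitor of Akt signalling, lay at 5.23, 5.42 and 5.62 in 8-week marrow and 5.40, 5.41 and 5.36 in 1-week marrow. Its difference of 0.03 ± 0.07 had an interval of -0.13 to 0.19. Without irradiation it was lower at 8 weeks (-0.60 ± 0.07), and the interaction was called (0.63 ± 0.10, adjusted p = 0.000869), though not with the authors' deposited values (adjusted p = 0.535). Abhd4, a lipase-like gene, overlapped at 6 h (-0.06 ± 0.07, interval -0.21 to 0.09) and was higher at 8 weeks without irradiation (0.61 ± 0.07), with an interaction of -0.67 ± 0.10 (adjusted p = 0.000514, and 0.0755 with another background correction). The zinc finger gene Zmat3 was called in neither condition (0.03 ± 0.08 at 6 h, interval -0.13 to 0.20, and -0.11 ± 0.08 unirradiated).

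Other p53 targets did differ with age. Fas, a death receptor, lay at 1.87, 1.87 and 1.83 in 8-week marrow and 0.56, 0.44 and 0.41 in 1-week marrow, 1.39 ± 0.07 (adjusted p = 7.87e-11), with 1.45 ± 0.07 in unirradiated marrow. Steap3, an endosomal iron reductase of red cell precursors, was lower (-1.66 ± 0.13), and so was Pidd1, which activates caspase 2 (-1.15 ± 0.09). Mdm2, the ligase that degrades p53, was higher by 0.29 ± 0.09 (adjusted p = 0.0066). The death gene Bbc3, known as PUMA, was lower (-0.31 ± 0.08, adjusted p = 0.00216). Gdf15, a stress cytokine, was higher by 1.25 ± 0.39 (adjusted p = 0.00966). Ccng1 was at -0.27 ± 0.08 (adjusted p = 0.00576), a call lost with another background correction, with the authors' deposited values and when its probes were averaged. In the BCL2 family 4 of 13 were higher and 4 lower, near the 27.9% higher and 36.3% lower over all genes. The survival gene Bcl2 lay at 1.22, 1.09 and 1.12 in 8-week marrow and -0.66, -0.50 and -0.48 in 1-week marrow (1.69 ± 0.08, adjusted p = 5.89e-11).

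**Figure D5:**
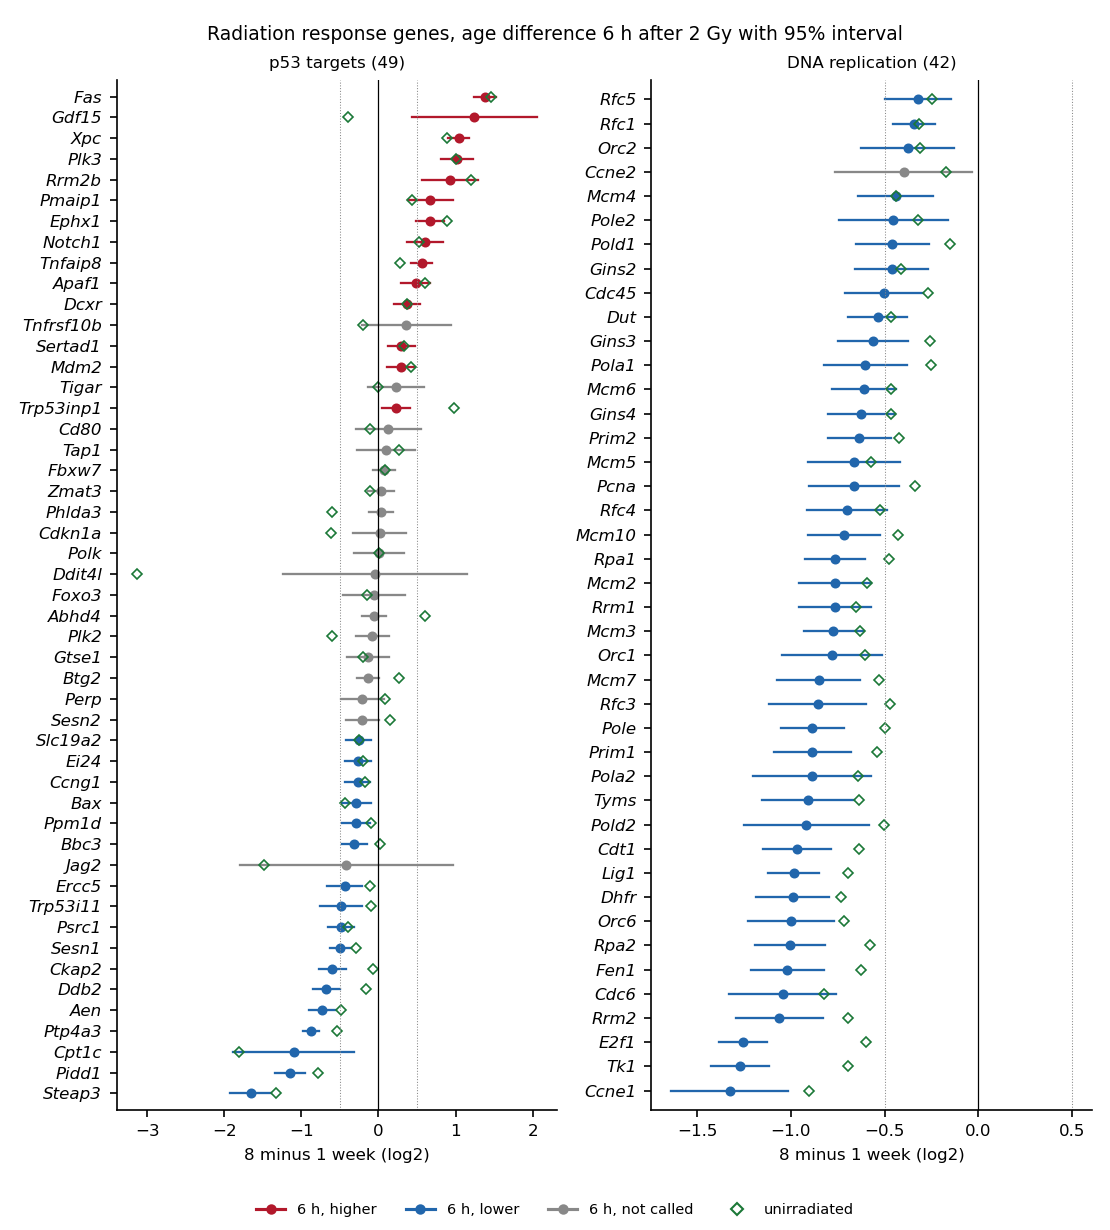
Age difference 6 h after 2 Gy (8 weeks minus 1 week, log2) of 49 p53 targets and 42 DNA replication genes, as points with 95% intervals from the limma fit, coloured by call, with unirradiated differences as open diamonds and dotted lines at -0.5 and 0.5. The p53 targets lie on both sides of 0, with Cdkn1a at 0.01, and the replication genes all lie below 0, with E2f1 at -1.26.

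Bone and matrix genes were mostly lower at 8 weeks. Osteoblast and bone matrix genes were lower in 15 of 21 members and higher in 2 (median -1.46, against -2.44 in unirradiated marrow). Collagens were lower in 14 of 18 and higher in 2 (median -1.54, against -2.94). The 2 higher collagens both differed by at least 2-fold, the larger by 2.99. The unirradiated medians include 1-week control replicate 2, which stands apart in muscle and cartilage genes. Dmp1, a matrix protein of osteocytes, lay at -3.58, -3.82 and -4.45 in 8-week marrow and 0.20, -0.53 and -0.0035 in 1-week marrow, -3.84 ± 0.45 (adjusted p = 1.54e-06). It was well above background on 2 of the 8-week arrays. Col1a1, the main collagen of bone, lay at 4.53, 3.73 and 4.02 in 8-week marrow and 7.11, 6.83 and 7.03 in 1-week marrow, -2.90 ± 0.21 (adjusted p = 6.25e-09). The basement membrane collagen Col4a1 was at -2.24 ± 0.13, with interactions of 1.17 ± 0.19 against unirradiated marrow (adjusted p = 0.000666) and -0.93 ± 0.19 against 24 h (adjusted p = 0.00362). Cthrc1, a secreted matrix protein, was well above background on no 8-week array and at least 4.85-fold lower (adjusted p = 4.61e-08). Osteoclast genes gave 2 higher and 8 lower of 15, with the bone-degrading protease Ctsk at -2.49 ± 0.25 and the acid phosphatase Acp5 at -1.31 ± 0.12.

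Stromal fibroblast and reticular cell genes gave 6 higher, 8 lower and 8 not called of 22 at 6 h (median -0.14). That is near the 27.9% higher and 36.3% lower over all genes. With slide in the fit, or without 8-week replicate 2, 5 were lower. In unirradiated marrow 17 were lower and 3 higher (median -1.27), and the interaction was positive and called in 15 and negative in 0. Without the 2 arrays named above it was positive in 16. Mmp2, a gelatinase of stromal cells, lay at -1.39, -1.76 and -1.43 in 8-week marrow and -0.97, -1.13 and -0.81 in 1-week marrow (-0.56 ± 0.20), a call lost with slide in the fit and without 1-week replicate 3 or 8-week replicate 2. Its unirradiated difference was -2.94 ± 0.20 and the interaction 2.38 ± 0.28 (adjusted p = 5.28e-05). Pdgfrb, a growth factor receptor of perivascular cells, was lower at 6 h (-1.13 ± 0.14) and the complement inhibitor Serping1 higher (1.84 ± 0.14). Endothelial genes were lower in 21 of 26 members (median -1.07), among them the VEGF receptor Kdr (-1.58 ± 0.15) and the junction cadherin Cdh5 (-1.25 ± 0.13).

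Markers of skeletal muscle and cartilage, which adjoin marrow, had medians below 0 at 6 h and none was called. Of 20 skeletal muscle genes the median was -1.15, with a summed signal relative to the 75th percentile of 8.74 to 16.58 on the 8-week arrays and 12.56 to 29.55 on the 1-week arrays. Of 7 cartilage genes the median was -1.31, with sums of 0.4268 to 0.5492 on the 8-week arrays and 0.7358 to 1.555 on the 1-week arrays. The limma counts at an adjusted p under 0.05 were 0 of both lists, and without the 2 arrays that stand apart 5 genes of the Skeletal muscle list and 6 of the Cartilage list were lower at 8 weeks. Fitted on the 6 arrays alone 9 and 5 were lower, and without 1-week control replicate 2 alone 6 and 5. In unirradiated marrow 15 muscle and 7 cartilage genes were lower at 8 weeks, where the median muscle gene lay at 5.13 on 1-week control replicate 2, against -1.73 and -0.52 on the other 1-week controls. The median cartilage gene lay at 3.42 on that array, against -3.79 and -2.83 on the other 1-week controls. The part of these tissues in the bone, stromal and fetal growth gene results was not tested.

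Growth genes of fetal and newborn life were mostly lower at 8 weeks, in 16 of 25 members with 4 higher (median -1.08, against -2.25 in unirradiated marrow). That unirradiated median also includes 1-week control replicate 2. Igf2, a fetal growth factor, lay at -4.53, -3.37 and -3.005 in 8-week marrow and 2.42, 2.35 and 2.32 in 1-week marrow, -5.995 ± 0.60 (adjusted p = 2.43e-07). The 1-week arrays lay close together, and the 8-week arrays spread more widely and were dim. Igf2bp3, an RNA-binding protein of fetal tissues, was well above background on no 8-week array, at -5.35, -5.62 and -6.09, against -0.31, -0.25 and -0.31 at 1 week. It was at least 14.5-fold lower at 8 weeks (adjusted p = 3.72e-11). Hmga2, a chromatin protein that Lin28b acts on through let-7 microRNAs, was at -1.13 ± 0.15, with an interaction of 0.98 ± 0.22 (adjusted p = 0.00665), and its difference was not called when its probes were averaged. Lin28b was well above background on 2 of the 1-week arrays and none at 8 weeks, at least 1.12-fold lower. The imprinted growth inhibitor Grb10 was at -1.65 ± 0.14. Afp, the fetal albumin homologue, was higher at 8 weeks, at -1.20, -1.26 and -1.24 in 8-week marrow and -3.94, -3.45 and -3.30 in 1-week marrow (2.33 ± 0.14).

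Other genes among the extremes had no common role. Degs2, a sphingolipid hydroxylase, was well above background on all 8-week arrays and no 1-week array, and was at least 8.07-fold higher (adjusted p = 3.25e-12). Pla2g2d, a secreted phospholipase, lay at 0.51, 0.71 and 0.80 in 8-week marrow and -2.64, -2.33 and -2.97 in 1-week marrow (3.32 ± 0.17), and in unirradiated marrow it was well above background on no 1-week array. Chga, the granin of endocrine cells, was at least 3.33-fold lower (adjusted p = 4.52e-10).

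The list counts that follow stand against 27.9% higher and 36.3% lower over all genes. Of 22 cholesterol genes 8 were higher and 9 lower (median -0.21), with the squalene synthase Fdft1 at -1.23 ± 0.06. Of 15 glucocorticoid-induced and metallothionein genes 7 were higher and 5 lower, Tsc22d3, a glucocorticoid-induced leucine zipper, at 1.11 ± 0.09 and the metal-binding Mt2 at -1.14 ± 0.13. Among 14 clock genes 8 were higher and 1 lower. Dbp, an output gene of the clock, lay at 2.17, 2.06 and 2.14 in 8-week marrow and 1.09, 1.23 and 1.09 in 1-week marrow (0.99 ± 0.06), a gap 0.82 ± 0.08 wider than at 24 h (adjusted p = 6.89e-05). The labels used here give no time of day. Of 14 adipocyte and lipid uptake genes 9 were higher and 2 lower (median 0.58), with the adipsin gene Cfd higher by 2.75 ± 0.37 and the fatty acid carrier Fabp4 lower (-1.13 ± 0.12).

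Genes named for their interaction with unirradiated marrow included stromal and matrix genes. The myelin gene Pmp22 was higher at 8 weeks at 6 h (0.83 ± 0.32) and lower without irradiation (-2.04 ± 0.32), with an interaction of 2.87 ± 0.46 (adjusted p = 0.000709), and its call at 6 h was lost with slide in the fit and when any of 5 single arrays was left out. Sobp had an interaction of 2.75 ± 0.57 (adjusted p = 0.00435). The glycerol phosphate dehydrogenase gene Gpd1 had one of 2.34 ± 0.68 (adjusted p = 0.0262) and the collagen gene Col16a1 one of 2.26 ± 0.58 (adjusted p = 0.0142). Without 1-week control replicate 2 they were 1.38 for Gpd1 and 1.47 for Col16a1, and with slide in the fit neither was called.

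The metalloprotease gene Adam33 was well above background on no 8-week array at 6 h and at least 4.95-fold lower, with a difference of -0.10 ± 0.18 in unirradiated marrow (adjusted p = 0.665). The phospholipase gene Plcd3 lay at -2.10, -1.49 and -3.06 in 8-week marrow and 0.11, -0.19 and 0.32 in 1-week marrow (-2.30 ± 0.33), against -0.13 ± 0.33 in unirradiated marrow (interaction -2.17 ± 0.47, adjusted p = 0.00532). Mageb16, of the melanoma antigen family, was at -0.87 ± 0.24 at 6 h and -2.38 ± 0.24 at 24 h (interaction 1.51 ± 0.34, adjusted p = 0.00659).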

How the data were processed

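Whole marrow RNA from 18 mouse samples was read on one-colour Agilent arrays. The deposited intensity is the processed signal, background-corrected by Agilent Feature Extraction before deposit (9.5.1.1 per the file headers, 11.5.1 per the labels), and the authors' deposited log2 values served as an alternative. From the intensity log2 was taken, minus the array's 75th percentile over non-control spots, with outlier spots set aside. A gene was read by its brightest probe and tested where well above background on all 3 arrays of a group, which left 11884 of 17178 genes. RefSeq accessions gave the symbols. limma 3.58.1 (R 4.3.3) fitted 6 group means over all 18 arrays with an intensity trend, two-sided, with Benjamini-Hochberg adjustment. Lower bounds compare the higher group's mean with the dim group's mean. Dim values under the lowest well-above-background signal of their array were raised to it. These bounds hold for the main processing only. Over the alternatives the smallest log2 difference was 1.23 for Tnfrsf17, 1.92 for Degs2 and -2.80 for Igf2bp3, each smaller than its bound. The same held for Mcpt4 (-1.77), Cthrc1 (-1.41), Chga (-1.255), Adam33 (-1.29), Cxcl9 (0.89), Klra3 (0.98), Ccl8 (0.48) and Ccl27a (0.42). The smallest difference of Lin28b (-0.758) stayed beyond its bound. The fit was tested on simulated data, where false calls were a slightly larger share of calls than the nominal level. Slide, replicate number, normalization, background, filters, probe choice and left-out arrays were alternatives. Genes were named by rule: the 15 highest and 15 lowest at 6 h, the 8 highest and 8 lowest of each interaction, up to 5 of each list by adjusted p, all chemokine genes tested, 14 fixed genes and genes with narrow intervals near 0. A few of these genes are not reported here. The members and lists were chosen with earlier results of these data known. The number of arrays limits the precision.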

Additional observations from a re-analysis of the deposited data

Results flagged for a closer look

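Each result here drew attention because the difference between 8-week and 1-week marrow at 6 h was of another size than under another condition, by a limma interaction test at an adjusted p under 0.05. Genes with a group well above background on no array are left out. Values are the log2 age difference at 6 h minus that under the other condition, so a positive value means that 8-week marrow stood higher relative to 1-week marrow at 6 h. For genes of resident macrophages and the cytokine gene Il18 the interaction with unirradiated marrow was 2.04 for Cd5l, 1.94 for Fcna, 1.47 for Hmox1, 1.62 for Timd4, 1.89 for C1qa, 2.09 for C1qc, 1.91 for Marco, 1.37 for Spic and 1.59 for Il18. For heat shock and interferon-stimulated genes it was 1.28 for Hsph1, 0.87 for Hsp90aa1, 1.02 for Hspa1a, 1.60 for Ifit3, 0.80 for Oasl2 and 1.498 for Rtp4. For chemokines and marrow cell genes it was 0.92 for Ccl2, 0.88 for Cxcl12, 1.08 for Cxcl14, 0.90 for Cd34, -0.66 for E2f1, -0.58 for Tk1, 0.60 for Ctsg, -1.16 for Rag1 and -0.69 for Ms4a1. For the p53 targets Phlda3 and Abhd4 it was 0.63 for Phlda3 and -0.67 for Abhd4. For growth, matrix and other genes it was 0.98 for Hmga2, 1.17 for Col4a1, 2.87 for Pmp22, 2.75 for Sobp, 2.38 for Mmp2, 2.34 for Gpd1, 2.26 for Col16a1 and -2.17 for Plcd3.

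Against marrow at 24 h the interaction for macrophage, heat shock and interferon genes was 1.41 for Fcna, 1.11 for Hmox1, 1.34 for Timd4, 0.89 for Il18, 0.84 for Hsph1, 0.51 for Hsp90aa1, -1.13 for Ifit3, -2.72 for Ifit3b and -0.89 for Oasl2. For chemokines and their receptors it was -0.82 for Ccl2, -1.46 for Ccl4, 0.55 for Ccl5, -1.61 for Cxcl10 and 1.00 for Ccr6. For genes of the cell cycle, blood lineages, matrix and clock it was -0.70 for E2f1, -0.50 for Tk1, -0.59 for Ctsg, -0.67 for Mpo, 0.96 for Ms4a1, -0.93 for Col4a1, -1.18 for Itga2b, -1.16 for Gp5, 1.51 for Mageb16 and 0.82 for Dbp. Over the interactions with both conditions the highest adjusted p of the main limma fit was 0.0262, of Gpd1 against unirradiated marrow. Some of these calls were lost under an alternative, as given with the genes above, among them Gpd1 and Col16a1 with slide in the fit.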

How the results depend on the processing

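Precision is limited by 3 arrays per group and by dim probes, and 5276 genes were too dim to test. Over the alternatives the calls at 6 h numbered 6879 to 8180, in unirradiated marrow 7006 to 8278 and at 24 h 6502 to 7686. The interaction with unirradiated marrow was called in 1282 genes with slide in the fit, and the interaction with 24 h in 1490 with slide in the fit and 1414 with normexp background correction on the median signal, an alternative chosen after seeing the data. Leaving out 1 array at a time gave 6922 to 7784 calls at 6 h, 7141 to 7774 in unirradiated marrow, 6560 to 7413 at 24 h, 1544 to 2119 for the interaction with unirradiated marrow and 1475 to 2679 for that with 24 h, the lowest without 8-week 6 h replicate 2. Quantile normalization moved the higher share of the interaction with 24 h to 36.5%, against 23.7%. Averaging the probes of a gene reversed Adamts9 (0.158), Ppm1e (-0.410), Clock (-0.103), Ccl25 (-0.315) and Ccng1 (0.00193), and the cause was not tested. Normexp shrank but kept the calls of the interactions of Timd4 (0.85 and 0.48), Ifit3 (1.02), Ccl4 (-0.73), Sobp (1.66) and Mmp2 (1.32). Averaged probes gave 1.91 for Hmga2. The replicate number as a block gave 7596 calls at 6 h, 7665 in unirradiated marrow, 7221 at 24 h, 2070 for the interaction with unirradiated marrow and 2253 for that with 24 h. Same-numbered arrays did not deviate together throughout (median r of -0.0145, range -0.267 to 0.319 over 45 pairs, 9 of them over 0.1). The numbers were therefore not taken as pairs, and arrays of unlike number were not compared in this way. Normexp on the mean signal was not run.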
